A study of Mus musculus with 16 samples.

Results

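Dner and 9 other genes of the Notch pathway were followed through 16 libraries of mouse hypothalamic RNA. The 10 genes were chosen by name, and Dner among them by its measured genotype difference. They are 10 of the 45706 gene rows in the count tables. They are the ligands Dll1, Jag1 and Jag2, the non-canonical ligand Dner, the receptors Notch1, Notch2 and Notch3, the DNA-binding factor Rbpj, and the target genes Hes5 and Hey1. All 10 passed the filter on low counts in every comparison of the default settings. The rule does not say in which fraction that difference was read, so all genotype values of Dner are a description and were not tested. For the other 9 genes the choice rested on their place in the pathway.

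The study used bacTRAP, in which GFP-tagged ribosomes (GFP is joined to the ribosomal protein L10a) are pulled out of a tissue lysate with antibodies against GFP. Each of 8 pools of 4 mice gave a pulldown library of the precipitated RNA and an input library from the lysate before precipitation. The 4 groups, of 4 libraries each, were Lepr-deletion pulldown and Lepr-deletion input (pools 5 to 8), with control pulldown and control input (pools 1 to 4). Animals were 12 weeks old in 1 protocol and 10 to 12 weeks old in the other. All groups shared a C57Bl/6N background, chow, random feeding and an L10a-GFP allele that is switched on by Cre recombinase. The Lepr-deletion group is labelled as lacking Lepr, the leptin receptor gene, in cells that express Pnoc, the gene of prepronociceptin. The controls are labelled as Lepr-flox, and the labels do not give their Cre allele in so many words. Cre acts permanently, so tagged cells are those in which Pnoc-driven Cre has ever been active, and a pool averages its animals. The labels do not give the sex of the animals.

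Notch receptors are cell-surface proteins that are cut when a ligand on a neighbouring cell pulls on them, and the freed inner part enters the nucleus. There it joins Rbpj and switches on repressors of the Hes and Hey families. In the adult brain, Notch receptors and Hes5 are best known from astrocytes, stem cells and vessel walls, whereas Dner is a transmembrane protein of neurons with EGF-like repeats, first described in Purkinje cells of the cerebellum.

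Library totals ran from 64435952 to 78623636 estimated counts. Levels below are TMM-scaled CPM, reads of a gene relative to the scaled library total, on which 3 counts, taken as the floor, equal 0.0321 to 0.0562 CPM. In the pulldown libraries labelled Lepr deletion, total Lepr was 2.62 ± 0.171 CPM, against 1.62 ± 0.185 CPM in control pulldown (SD, n = 4 each). The gene total was thus higher there, at 2.42 to 2.82 CPM against 1.42 to 1.86 CPM, without overlap, which held for 10.0% of all genes tested in pulldown. In input it ranged from 4.78 to 8.14 CPM in Lepr-deletion pools and from 3.49 to 5.11 CPM in control pools, which overlap. A gene total also counts exons outside a floxed part and checks the label only weakly. Lepr-deletion pool 5 and control pool 1 stood apart in the genotype comparisons. Leaving both out moved the genes called in pulldown to 3363, against 108 with all pools, and those called in input to 1957, against 41.

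Promoter sequences are shown for a pair of Notch target genes and for Dner, because these 2 targets hold matches to the core letters that Rbpj binds and the Dner window does not. The windows run from 250 bases before to 50 bases after a RefSeq start, in GRCm38.p6, on the strand of the gene. The motif searched was TGGGAA, or TTCCCA on the other strand, and matches are in capitals. Hes5 lies at chr4:154960673-154960972 on the plus strand, Hey2 at chr10:30842734-30843033 on the minus strand, and Dner at chr1:84696172-84696471 on the minus strand.
Hes5: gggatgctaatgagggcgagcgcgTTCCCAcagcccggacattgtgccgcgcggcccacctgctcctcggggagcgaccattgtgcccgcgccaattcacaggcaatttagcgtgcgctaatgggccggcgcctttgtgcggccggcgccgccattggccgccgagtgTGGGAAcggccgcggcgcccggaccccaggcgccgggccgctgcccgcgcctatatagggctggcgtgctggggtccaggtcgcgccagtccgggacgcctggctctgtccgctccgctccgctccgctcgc
Hey2: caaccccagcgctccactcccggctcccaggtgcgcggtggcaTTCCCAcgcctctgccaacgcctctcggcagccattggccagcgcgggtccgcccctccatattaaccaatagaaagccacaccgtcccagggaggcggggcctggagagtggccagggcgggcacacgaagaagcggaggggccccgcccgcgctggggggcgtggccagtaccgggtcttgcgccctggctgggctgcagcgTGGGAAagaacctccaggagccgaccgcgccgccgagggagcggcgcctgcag
Dner: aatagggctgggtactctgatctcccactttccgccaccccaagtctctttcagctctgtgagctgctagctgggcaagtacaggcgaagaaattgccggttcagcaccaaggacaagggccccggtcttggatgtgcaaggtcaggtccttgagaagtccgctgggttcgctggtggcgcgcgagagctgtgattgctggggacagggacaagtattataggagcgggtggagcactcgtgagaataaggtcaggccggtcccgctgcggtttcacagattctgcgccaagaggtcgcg
The Hes5 matches begin 226 and 82 bases before the start used for its window, and those of Hey2 begin 207 and 3 bases before theirs. The annotated Hes5 gene runs from 154960626 to 154962372, so the whole Hes5 window lies inside it. Of the 10 genes, 9 had at least 1 window, 11 windows in all. Among them Hes5 and Rbpj were the 2 genes with a match. The windows of Rbpj overlap and hold 2 distinct matches between them. Of the 7 target genes on the lists, 4 had a window, and those of Hes6 and Nrarp held no match. Of 32851 promoter windows of that length, 25.6% held at least 1 match and 3.79% at least 2. A match describes letters and not binding, and a window without one says nothing about the factor.

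Dner, the ligand-like neuronal protein, was the most abundant of the 10 genes per transcript length in pulldown and was lower in Lepr-deletion libraries of both fractions. Its gene (ENSMUSG00000036766) lies on chromosome 1 from 84369839 to 84696221, where the annotation also places Mir5126. In Lepr-deletion pulldown, pools 5 to 8 had 91.7, 67.0, 71.9 and 76.2 CPM, against 121, 122, 116 and 124 CPM in control pulldown pools 1 to 4. The groups did not overlap, and pool 5 was the Lepr-deletion library nearest to the controls. In input, the Lepr-deletion pools had 52.4, 50.6, 47.8 and 51.4 CPM, against 63.0, 87.7, 65.5 and 64.5 CPM in controls. Again the groups did not overlap, and control pool 2 stood above the other controls. Among all genes tested, groups did not overlap for 10.0% in pulldown and 6.88% in input. Means were 76.7 ± 10.7 CPM in Lepr-deletion pulldown and 121 ± 3.52 CPM in control pulldown, then 50.5 ± 1.99 CPM in Lepr-deletion input and 70.2 ± 11.7 CPM in control input (SD, n = 4 each). The log2 fold change of Lepr deletion over control was -0.64 (SE 0.08) in pulldown and -0.47 (SE 0.09) in input. These differences are 1.56-fold and 1.39-fold, and they ranged from -0.75 to -0.59 in pulldown and from -0.52 to -0.35 in input when each library was left out in turn. The value nearest to 0 in input, -0.35, came without control pool 2. Input holds RNA of the whole hypothalamus, and in such bulk libraries fewer cells of a type cannot be told apart from less RNA per cell. In the authors' deposited table the log2 fold changes of Dner were -0.64 in pulldown and -0.47 in input.

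Markers of other cell types were measured beside this difference. The summed level of 6 pan-neuronal genes was 10772 to 11434 CPM in Lepr-deletion pulldown and 11425 to 13067 CPM in control pulldown, and 6103 to 6740 CPM in Lepr-deletion input and 6175 to 6787 CPM in control input. The 3 vesicular glutamate transporters summed to 190 to 249 CPM in Lepr-deletion pulldown and 259 to 313 CPM in control pulldown, without overlap. They summed to 162 to 205 CPM in Lepr-deletion input and 195 to 213 CPM in control input. The 3 GABAergic genes went the other way, at 3178 to 3470 CPM in Lepr-deletion pulldown and 2565 to 3173 CPM in control pulldown, also without overlap. In input they summed to 1659 to 1951 CPM in Lepr-deletion pools and 1446 to 1706 CPM in control pools, which overlap. None of these 12 genes passed the test between genotypes in either fraction among those tested. Summed astrocyte markers lay at 2917 to 3141 CPM in Lepr-deletion input and 3206 to 3591 CPM in control input, without overlap, and 1 of the 10 was called lower. In pulldown, microglial markers summed to 9.19 to 10.6 CPM in Lepr-deletion pools and 11.6 to 11.9 CPM in control pools, and oligodendrocyte-precursor markers to 5.21 to 6.99 CPM in Lepr-deletion pools and 4.71 to 5.03 CPM in control pools. Neither overlapped, and none of their genes was called. The part of any of these lists in the Dner difference was not tested.

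**Figure D1:**
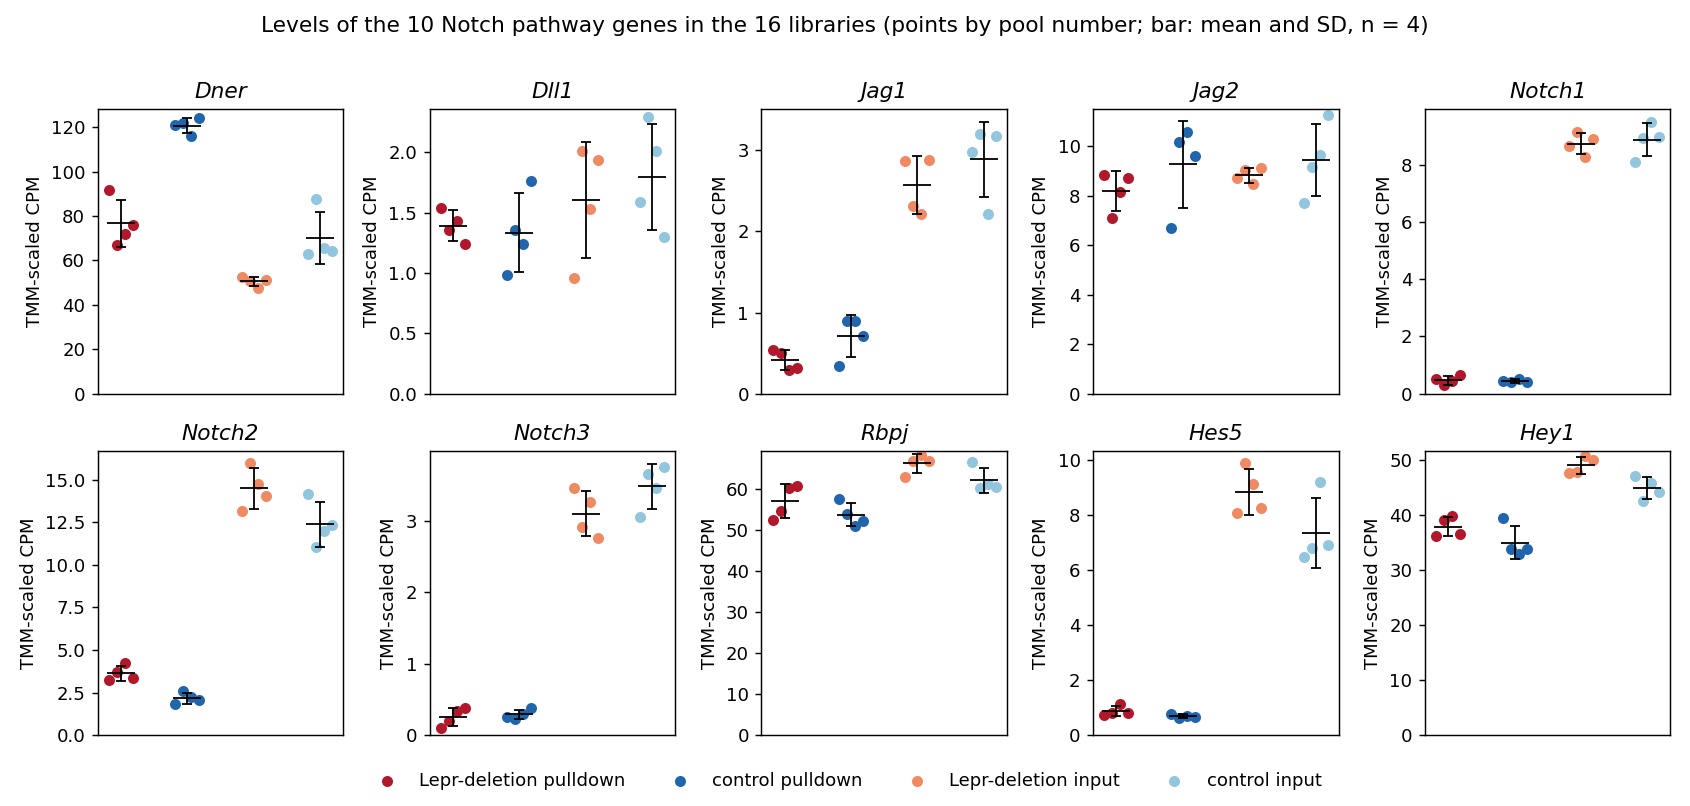
TMM-scaled CPM of each of the 10 genes (vertical axes start at 0 and differ between panels) in the 16 libraries, with groups from left to right as Lepr-deletion pulldown, control pulldown, Lepr-deletion input and control input; points are pools and bars the mean and SD of 4. Dner separates the genotypes in both fractions (76.7 against 121 CPM in pulldown), Notch2 in pulldown alone and Hey1 in input alone. Of all genes tested, 10.0% did so in pulldown and 6.88% in input. Notch1, Notch3, Jag1 and Hes5 lie far lower in pulldown than in input.

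In precipitated ribosomes, Dner was higher than in input in both genotypes, the reverse of the receptors. Its log2 fold change of pulldown over input was 0.59 (SE 0.08) in Lepr-deletion pools, with an adjusted p of 2.95e-05, and 0.77 (SE 0.09) in control pools, with an adjusted p of 1.82e-05, by the quasi-likelihood test of edgeR (Benjamini-Hochberg over all genes tested). Pulldown and input libraries did not overlap in either genotype, which held for 56.4% of all genes in Lepr-deletion pools and 59.5% in control pools. The difference of these fold changes, Lepr deletion minus control, was -0.18 (SE 0.13) and is part of the description of Dner. All 6 pan-neuronal genes were called higher in pulldown as well, with a median log2 fold change of 0.59 in Lepr-deletion pools and 0.64 in control pools.

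Across the 10 genes, pulldown over input was called for 8 in Lepr-deletion pools, 1 higher and 7 lower, where 61.6% of all 17423 genes tested were called. In control pools it was likewise 8, 1 higher and 7 lower, where 64.8% of 17570 genes were called. Of all genes, 28.8% were called higher and 32.8% lower in Lepr-deletion pools, and 30.1% higher and 34.6% lower in control pools. The median log2 fold change of the 10 genes was -1.19 in Lepr-deletion pools and -1.24 in control pools, beside -0.01 and -0.02 for all genes tested in the same pools.

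Among the canonical ligands, Jag1 was depleted from pulldown and Jag2 and Dll1 did not pass the test. Jag1, a ligand of endothelial, smooth muscle and glial cells, lies on chromosome 2 from 137081451 to 137116520. It had 0.532, 0.498, 0.290 and 0.316 CPM in Lepr-deletion pulldown, against 2.87, 2.31, 2.22 and 2.88 CPM in Lepr-deletion input. Control pools had 0.344, 0.897, 0.897 and 0.714 CPM in pulldown, against 2.98, 3.20, 2.21 and 3.17 CPM in input. No pulldown library reached the lowest input library. The log2 fold change was -2.65 (SE 0.23, adjusted p 3.86e-07) in Lepr-deletion pools and -2.03 (SE 0.27, adjusted p 3.74e-05) in control pools.

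Jag2, a second Jagged-class ligand, averaged 8.20 ± 0.804 CPM in Lepr-deletion pulldown and 8.83 ± 0.301 CPM in Lepr-deletion input. Control pools averaged 9.27 ± 1.76 CPM of Jag2 in pulldown, beside 9.45 ± 1.47 CPM in their input (SD, n = 4 each). The fractions overlapped in both genotypes, with log2 fold changes of -0.12 (adjusted p 0.268) in Lepr-deletion pools and -0.05 (adjusted p 0.801) in control pools. Dll1, a Delta-class ligand known from neurogenesis, lies on chromosome 17 from 15367354 to 15376932 and was at low levels, though above the floor. It ranged from 1.24 to 1.54 CPM in Lepr-deletion pulldown and from 0.958 to 2.01 CPM in Lepr-deletion input. For controls it ranged from 0.980 to 1.76 CPM in pulldown and from 1.30 to 2.29 CPM in input, so the fractions overlapped here too. Its log2 fold changes were -0.21 (adjusted p 0.421) in Lepr-deletion pools and -0.45 (adjusted p 0.107) in control pools. The ratio of its estimated counts to its length-rescaled counts differed 2.28-fold between libraries after division by each library's median. Estimated transcript lengths of Dll1 thus varied between libraries, whereas the same ratio varied by at most 1.20-fold for the other 9 genes.

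All 3 receptors were depleted from pulldown, Notch1 the most. Notch1, on chromosome 2 from 26457902 to 26503822, had 0.500, 0.288, 0.444 and 0.666 CPM in Lepr-deletion pulldown, against 8.64, 9.12, 8.28 and 8.88 CPM in Lepr-deletion input. Control pools had 0.426, 0.403, 0.522 and 0.417 CPM in pulldown, against 8.08, 8.91, 9.47 and 8.98 CPM in input. Every pulldown library was far below every input library but above the floor. Notch1 gave log2 fold changes of -4.22 (SE 0.18, adjusted p 3.45e-10) in Lepr-deletion pools and -4.34 (SE 0.12, adjusted p 7.36e-11) in control pools, which are 18.6-fold and 20.3-fold.

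Notch3, the receptor of pericytes and vascular smooth muscle, lies on chromosome 17 from 32120820 to 32166896. It had 0.107, 0.193, 0.339 and 0.383 CPM in Lepr-deletion pulldown, against 3.46, 2.92, 3.26 and 2.77 CPM in Lepr-deletion input. Control pools had 0.259, 0.227, 0.292 and 0.382 CPM in pulldown, against 3.05, 3.66, 3.47 and 3.76 CPM in input. The pulldown values differed more than 3-fold among the Lepr-deletion pools and stayed under every input value. The log2 fold change was -3.62 (SE 0.29, adjusted p 1.85e-07) in Lepr-deletion pools and -3.60 (SE 0.19, adjusted p 1.91e-08) in control pools.

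Notch2 (ENSMUSG00000027878), on chromosome 3 from 98013538 to 98150367, was the least depleted of the receptors. Among the receptors it alone was called between genotypes in pulldown, and that call held in 2 of 8 fits leaving out 1 library each. Notch2 had 3.25, 3.69, 4.24 and 3.34 CPM in Lepr-deletion pulldown, against 13.1, 15.99, 14.7 and 14.1 CPM in Lepr-deletion input. In control pools it had 1.81, 2.59, 2.23 and 2.04 CPM in pulldown, against 14.2, 11.03, 12.0 and 12.3 CPM in input. Its log2 fold change of pulldown over input was -2.01 (SE 0.10, adjusted p 1.84e-09) in Lepr-deletion pools and -2.53 (SE 0.12, adjusted p 6.65e-09) in control pools. With strand not stated, reads of the receptors cannot be separated from those of annotated neighbours that overlap them, among them Gm40103 at Notch2, 0610009E02Rik and Mir6996 at Notch1, and Gm38585 and Gm41568 at Notch3. The same holds for Mir6941 at Jag2 and LOC115489673 at Hey1.

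Rbpj, the DNA-binding factor of the pathway, was slightly lower in pulldown. The gene lies on chromosome 5 from 53555779 to 53657445 and has annotated pseudogene copies that may share its reads. It had 52.5, 54.6, 60.1 and 60.7 CPM in Lepr-deletion pulldown, against 63.0, 66.7, 68.3 and 66.7 CPM in Lepr-deletion input. The control pools had 57.5, 53.9, 51.0 and 52.2 CPM in pulldown, against 66.5, 60.2, 61.3 and 60.3 CPM in input. The fractions did not overlap within either genotype, and the log2 fold change was -0.23 in each, with adjusted p of 0.00367 in Lepr-deletion pools and 0.00173 in control pools.

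The 2 target genes parted. Hes5, a repressor of neuronal differentiation in Notch-active progenitors and glia, was strongly depleted from pulldown. It had 0.745, 0.822, 1.13 and 0.791 CPM in Lepr-deletion pulldown, against 8.09, 9.89, 9.14 and 8.25 CPM in Lepr-deletion input. In control pools it had 0.769, 0.620, 0.702 and 0.670 CPM in pulldown, against 6.47, 6.80, 9.23 and 6.93 CPM in input. No pulldown value came near the input values, and the log2 fold change was -3.35 (SE 0.14, adjusted p 3.18e-10) in Lepr-deletion pools and -3.43 (SE 0.15, adjusted p 3.31e-09) in control pools. Hey1, a hairy-related repressor also known from vessels, lies on chromosome 3 from 8663359 to 8667038 and remained abundant in pulldown. It had 36.2, 39.1, 39.7 and 36.5 CPM in Lepr-deletion pulldown, against 47.7, 47.7, 50.7 and 50.0 CPM in Lepr-deletion input, and 39.4, 33.7, 33.0 and 33.8 CPM in control pulldown, against 47.1, 42.5, 45.7 and 44.1 CPM in control input. The fractions did not overlap, with a log2 fold change of -0.38 in each genotype (adjusted p 2.55e-05 in Lepr-deletion pools and 0.000207 in control pools).

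The small differences of Rbpj, Hey1, Jag2 and Dll1 between fractions depend on the scaling, while the directions of Dner, Jag1, Hes5 and the 3 receptors did not turn. Scaled by library totals, the log2 fold changes in Lepr-deletion pools became 0.23 for Rbpj, 0.07 for Hey1, 0.34 for Jag2 and 0.24 for Dll1. In control pools they became 0.32 for Rbpj, 0.17 for Hey1, 0.50 for Jag2 and 0.10 for Dll1. Under that scaling the median of all genes moved to 0.44 in Lepr-deletion pools and 0.53 in control pools, and the share of calls that were higher was 74.4% in Lepr-deletion pools and 76.2% in control pools, against 46.8% and 46.5% in the same pools with TMM. Relative to those medians Rbpj, Hey1, Jag2 and Dll1 were still negative.

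**Figure D2:**
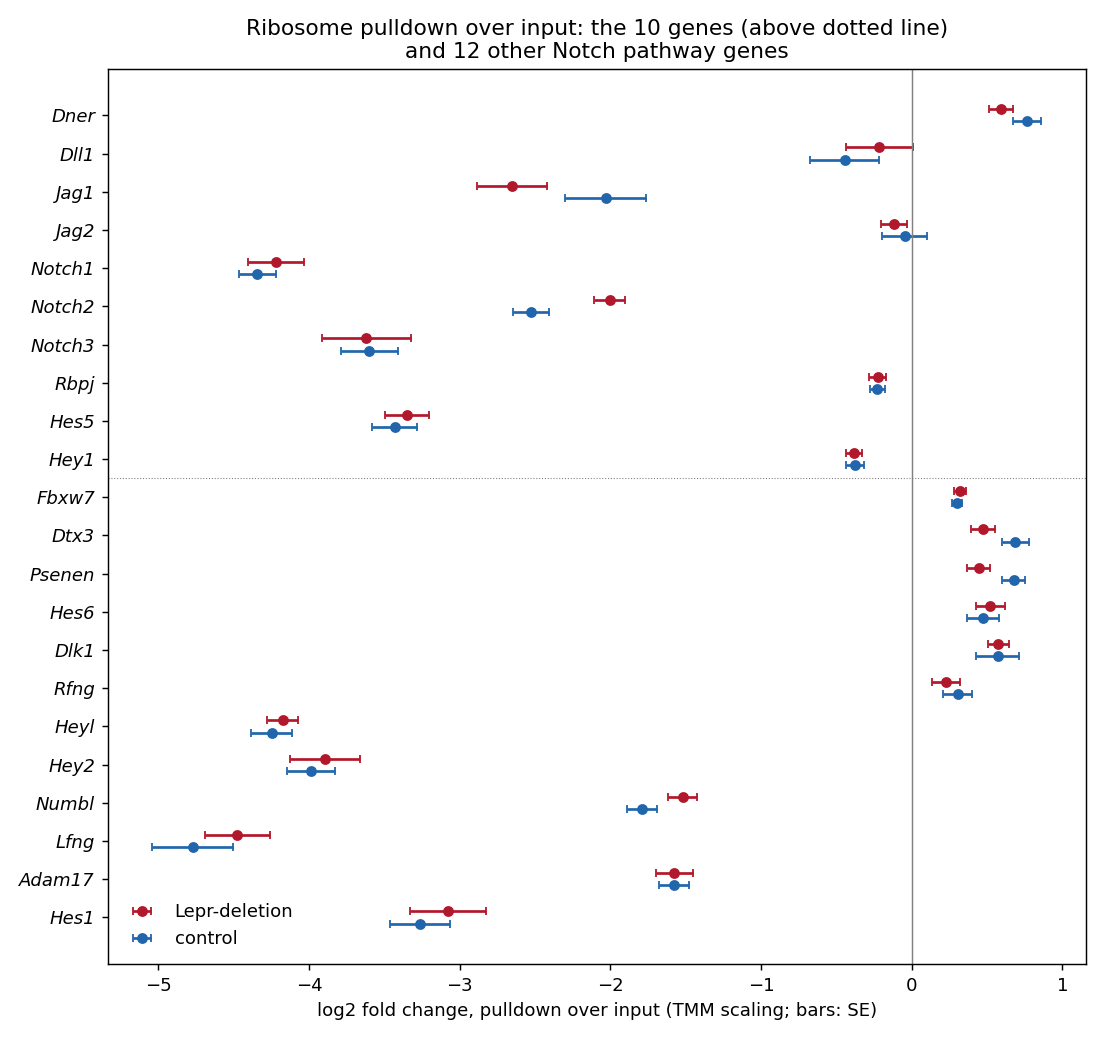
Log2 fold change of pulldown over input with its SE, TMM scaling, for the 10 genes (above the dotted line) and 12 further Notch pathway genes, with Lepr-deletion pools above control pools in each row. Dner is the member right of 0, at 0.59 and 0.77, and Notch1, Notch3, Hes5, Heyl, Hey2, Lfng and Hes1 lie left of -3; with library totals Rbpj, Hey1, Jag2 and Dll1 turn to the right of 0, and Numbl does so with TPM.

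Markers of other cell types moved with the depleted genes. All 10 astrocyte markers were called lower in pulldown in both genotypes, and their summed level was 384 to 425 CPM in Lepr-deletion pulldown and 2917 to 3141 CPM in Lepr-deletion input. It was 379 to 409 CPM in control pulldown and 3206 to 3591 CPM in control input. The 8 oligodendrocyte, 5 oligodendrocyte-precursor, 7 microglial and 8 tanycyte and ependymal markers were called lower without exception in both genotypes. Mural markers, which label pericytes and smooth muscle, were lower for 6 of 6 in Lepr-deletion pools and 5 of 6 in control pools, and endothelial markers for 6 of 6 tested of 7 in each. Mural markers summed to 4.55 to 11.8 CPM in Lepr-deletion pulldown, 3.56 to 5.90 CPM in control pulldown, 40.3 to 73.6 CPM in Lepr-deletion input and 38.1 to 50.4 CPM in control input. Of the endothelial markers, Cldn5 was at or under the floor in every pulldown library. Pnoc itself had a log2 fold change of 1.68 in each genotype. The part of other cell types in the depletion of Notch genes was not tested.

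Per transcript length, the order of the 10 genes differed between fractions. In TPM, which divides by length, Dner led in Lepr-deletion pulldown with 54.1 ± 7.34, followed by Hey1 with 41.5 ± 2.24 and Rbpj with 27.2 ± 2.52 (SD, n = 4 each). Jag2 followed at 5.16 TPM, then Dll1 at 2.27 and Hes5 at 2.00 TPM, whose ranges overlapped. Notch2 had 0.850 TPM, and Jag1, Notch1 and Notch3 closed the order at 0.182, 0.125 and 0.0794 TPM, each overlapping its neighbour. Control pulldown had the same order of means. Dner averaged 83.7 TPM there, Hey1 37.5, Rbpj 25.0, Jag2 5.73, Dll1 1.89, Hes5 1.54, Notch2 0.500, Jag1 0.314, Notch1 0.113 and Notch3 0.0879 TPM. In that group Dll1 and Hes5 overlapped, as did Notch1 and Notch3, and other neighbours did not.

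In input Hes5 stood above all ligands but Dner. In Lepr-deletion input the order of mean TPM was Hey1 28.9, Dner 19.2, Rbpj 17.1, Hes5 10.8, Jag2 2.99, Notch2 1.83, Notch1 1.23, Dll1 1.07, Jag1 0.619 and Notch3 0.515, and the last 4 overlapped from one to the next. In control input it was Dner 25.0, Hey1 24.8, Rbpj 15.1, Hes5 8.37, Jag2 3.00, Notch2 1.47, Dll1 1.29, Notch1 1.24, Jag1 0.694 and Notch3 0.543. There Dner and Hey1 overlapped, and Notch2, Dll1 and Notch1 overlapped from one to the next. The exchange of places between Dner and Hey1 between the input groups includes the Dner difference by which the gene was picked.

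Between genotypes, Notch2 was the 1 gene called among the 9 others in pulldown, where 0.641% of 16859 genes were called. At an unadjusted p under 0.05 in edgeR's quasi-likelihood test there were 2, Notch2 and Jag1, beside 19.8% of all genes tested. The 4 Lepr-deletion pulldown values of 3.25 to 4.24 CPM all lay above the 4 control pulldown values of 1.81 to 2.59 CPM. Genotypes did not overlap for 10.0% of all genes tested in pulldown. Notch2 averaged 3.63 ± 0.448 CPM in Lepr-deletion pulldown and 2.17 ± 0.327 CPM in control pulldown (SD, n = 4 each). Its log2 fold change was 0.75 (SE 0.14), or 1.69-fold, with an adjusted p of 0.0487 by edgeR's quasi-likelihood test. The call was lost without Lepr-deletion pool 6, 7 or 8, with adjusted p of 0.169, 0.196 and 0.113, and without control pool 2, 3 or 4, with adjusted p of 0.0657, 0.125 and 0.106. It held without pool 5 (0.0159) and without pool 1 (0.0367), while the log2 fold change stayed between 0.66 and 0.85 in these fits. The call was also lost with length-rescaled counts (adjusted p 0.170) and on log2(TPM + 1), where the log2 value was 0.30 (adjusted p 0.126). In edgeR it held with RLE factors (adjusted p 0.0466), library totals (0.0448) and no low-count filter (0.0212). It also held with DESeq2 (adjusted p 0.000106), which called 7.23% of the genes to which it gave an adjusted p in pulldown. The authors' deposited table gives Notch2 in pulldown a log2 fold change of 0.755, with an adjusted p of 9.66e-05. Lepr-deletion pool 7, the highest for Notch2, was also the highest pulldown library for the summed markers of every non-neuronal list except microglia. They were at 11.8 CPM for mural cells, 3.06 CPM for endothelial cells, 425 CPM for astrocytes, 158 CPM for oligodendrocytes, 6.99 CPM for their precursors, and 13.3 CPM for tanycytes and ependyma, and their part was not tested. No marker of a non-neuronal cell type was called between genotypes in pulldown.

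The other 8 genes did not pass the test in pulldown. Jag1 had the largest difference, a log2 fold change of -0.79 (SE 0.33, adjusted p 0.218), with control pool 1 at 0.344 CPM inside the Lepr-deletion range. Hes5 gave 0.35 (adjusted p 0.336), Hey1 0.13 (adjusted p 0.272) and Rbpj 0.10 (adjusted p 0.379), and their groups overlapped. Jag2 gave -0.17 (adjusted p 0.537), Notch3 -0.18 (adjusted p 0.838), Notch1 0.11 (adjusted p 0.857) and Dll1 0.07 (adjusted p 0.861). For Notch1, Notch3 and Jag1 these rest on levels under 1 CPM. With Lepr-deletion pool 5 and control pool 1 both left out, 5 of the 9 genes were called. They were Notch2 at 0.72, Jag1 at -1.16, Jag2 at -0.33, Rbpj at 0.17 and Hey1 at 0.21. That fit called 3363 genes, against 108 with all pools. Its share of all genes tested is not given here, so the 5 calls have no background beside them.

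In input, none of the 9 genes was called by edgeR's quasi-likelihood test, where 0.231% of 17735 genes were called. At an unadjusted p under 0.05 there were 3, namely Notch2, Hes5 and Hey1, beside 14.0% of all genes tested, and DESeq2 called 0. Notch2 gave a log2 fold change of 0.23 (SE 0.09, adjusted p 0.283), with control pool 1 at 14.2 CPM inside the Lepr-deletion range of 13.1 to 15.99 CPM. Hes5 gave 0.26 (SE 0.12, adjusted p 0.340), with control pool 3 at 9.23 CPM inside the Lepr-deletion range. Hey1 gave 0.13 (SE 0.05, adjusted p 0.279), and its groups, at 47.7 to 50.7 CPM in Lepr-deletion input and 42.5 to 47.1 CPM in control input, did not overlap. That held for 6.88% of all genes tested in input. Rbpj gave 0.09 (adjusted p 0.417), and the log2 fold changes of the remaining 5 genes lay between -0.17 and -0.02. Without pools 1 and 5, 2 of the 9 were called, Notch2 at 0.34 and Rbpj at 0.15. That fit called 1957 genes, against 41 with all pools, and its share of all genes tested is likewise not given.

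The difference of enrichment between genotypes was not called for any of the 9 genes by edgeR's quasi-likelihood test, where 0.0108% of 18530 genes were called. At an unadjusted p under 0.05 there was 1, Notch2, beside 8.96% of all genes tested, and DESeq2 called 0. Notch2 differed by 0.51 (SE 0.16) on the log2 scale, Lepr deletion minus control, with an unadjusted p of 0.00435 and an adjusted p of 0.407. Its higher pulldown level in Lepr-deletion pools is therefore not shown to be separate from input. Jag1 differed by -0.63 (adjusted p 0.626) and Hes5 by 0.07 (adjusted p 0.948).

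**Figure D3:**
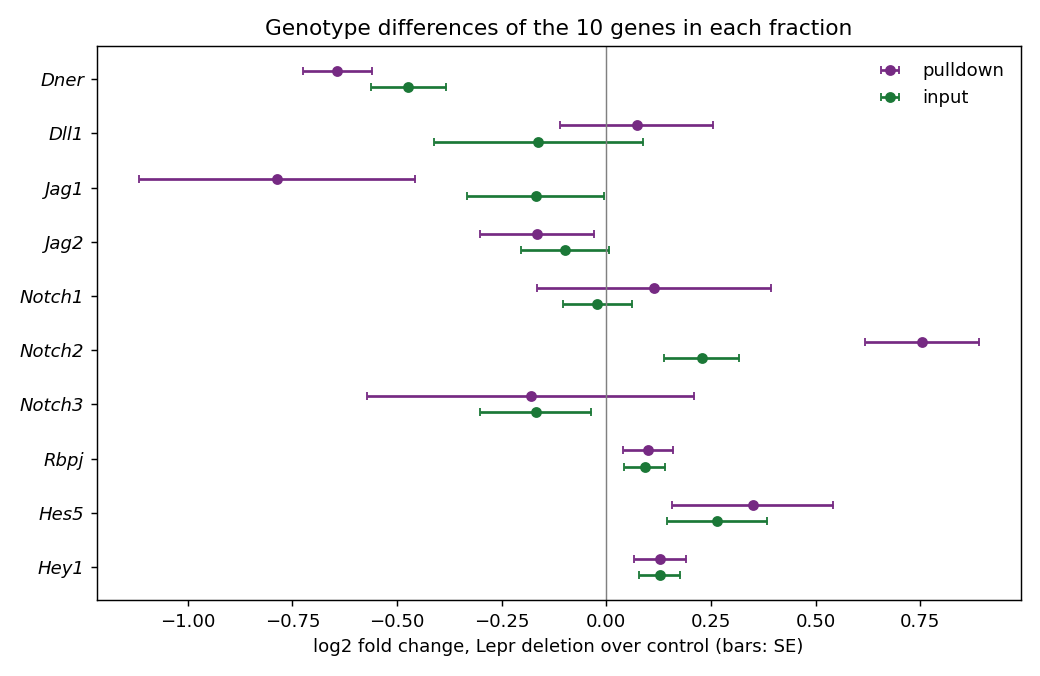
Log2 fold change of Lepr deletion over control with its SE for the 10 genes, with pulldown above input in each row. Notch2 in pulldown, at 0.75, is the one tested value past the threshold, and Dner, at -0.64 and -0.47, is shown as the gene picked for this difference.

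Other genes of the pathway were read from a list of 46, of which 45 were tested and Dll4 fell to the filter with levels of 0.0118 to 0.292 CPM. None of the 45 was called between genotypes in pulldown, in input or in the difference of enrichment by edgeR's quasi-likelihood test. At an unadjusted p under 0.05 there were 9 in pulldown, 7 in input and 5 in the difference, where 19.8%, 14.0% and 8.96% of all genes tested fell under that value. DESeq2 called 2 in pulldown (Snw1 and Aph1b), 1 in input (Nov) and 1 in the difference (Nov), where it called 7.23%, 2.25% and 0.194% of the genes to which it gave an adjusted p. The median log2 fold change of the list was -0.02 in pulldown and -0.04 in input, beside -0.01 in pulldown and -0.0025 in input for all genes tested.

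Between fractions, genes of the list were called in both directions. In Lepr-deletion pools 10 of the 45 were called higher in pulldown and 19 lower, where 28.8% of all genes tested were higher and 32.8% lower. In control pools 8 were higher and 18 lower, where 30.1% of all genes tested were higher and 34.6% lower, and 7 and 17 genes were shared between genotypes. The list's median was -0.06 in Lepr-deletion pools and -0.08 in control pools, near that of all genes. Of 5 further target genes, 4 were lower in each genotype. Heyl averaged 1.74 CPM in Lepr-deletion pulldown and 31.1 CPM in Lepr-deletion input, and 1.82 CPM in control pulldown and 34.1 CPM in control input. Its log2 fold change was -4.17 in Lepr-deletion pools (adjusted p 8.95e-13) and -4.25 in control pools (adjusted p 2.41e-10). Hey2, another hairy-related repressor, gave -3.89 in Lepr-deletion pools and -3.99 in control pools. Hes1, the best-known Notch-induced repressor, gave -3.08 in Lepr-deletion pools and -3.27 in control pools. Hes6, which can oppose Hes1, was the target gene called higher, with 0.52 (adjusted p 0.000346) in Lepr-deletion pools and 0.47 (adjusted p 0.00186) in control pools.

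Enzymes that prepare or cut the receptors went both ways. Lfng, a Fringe glycosyltransferase that changes which ligands a receptor answers, fell to 0.128 CPM in Lepr-deletion pulldown, against 2.89 CPM in Lepr-deletion input, and to 0.119 CPM in control pulldown, against 3.27 CPM in control input. Its log2 fold changes were -4.47 in Lepr-deletion pools and -4.77 in control pools. Rfng, another Fringe, gave 0.23 (adjusted p 0.0434) in Lepr-deletion pools and 0.31 (adjusted p 0.0148) in control pools. Adam17, a protease that can cut the outer part of the receptor, gave -1.57 in Lepr-deletion pools and -1.58 in control pools. Psenen, a subunit of gamma-secretase, which makes the last cut, gave 0.45 in Lepr-deletion pools and 0.68 in control pools.

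Regulators and a further ligand completed the named genes. Fbxw7, which marks the cut receptor for degradation, gave 0.32 in Lepr-deletion pools and 0.30 in control pools. Dtx3, of the Deltex family, gave 0.47 in Lepr-deletion pools and 0.69 in control pools, and Dlk1, a non-canonical ligand, gave 0.57 in each. All of these passed the test in both genotypes and kept their direction with library totals and with TPM. Numbl, a relative of the Notch antagonist Numb, gave -1.52 in Lepr-deletion pools and -1.79 in control pools on counts. On length-rescaled counts it gave 0.02 in Lepr-deletion pools and -0.14 in control pools, and on log2(TPM + 1) 0.77 in Lepr-deletion pools and 0.68 in control pools, so its depletion was seen on the count scale alone.

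Genes around Dner were read to see whether neighbours shared its difference. Within 5 Mb of Dner, 62 genes were tested in pulldown and 66 in input, with median log2 fold changes of Lepr deletion over control of 0.03 and -0.01. In each fraction 1 of them was called, Wdfy1, which was singled out after its values were seen. That is 1.61% in pulldown and 1.52% in input, where 0.641% and 0.231% of all genes tested were called. Between gene midpoints Wdfy1 lies at -4.79 Mb from Dner, near the edge of the window, and no nearer gene was called. Wdfy1 lies on chromosome 1 from 79702262 to 79776143 and encodes a protein with WD repeats and a FYVE domain that sits on endosomes. It had 66.2, 52.5, 53.2 and 60.0 CPM in Lepr-deletion pulldown, against 93.4, 103, 83.5 and 79.4 CPM in control pulldown. In input it had 62.8, 52.1, 52.4 and 61.0 CPM in Lepr-deletion pools, against 86.0, 91.3, 81.4 and 76.0 CPM in control pools. The groups did not overlap in either fraction, which held for 10.0% of all genes tested in pulldown and 6.88% in input. The log2 fold change was -0.62 (SE 0.09, adjusted p 0.0176) in pulldown and -0.55 (SE 0.07, adjusted p 0.00470) in input. Leaving out each library in turn, Wdfy1 was called in 8 of 8 fits in input and in 4 of 8 in pulldown. In pulldown the call was lost without Lepr-deletion pool 6, 7 or 8, with adjusted p of 0.0914, 0.0809 and 0.0606, and without control pool 2, with 0.0608.

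**Figure D4:**
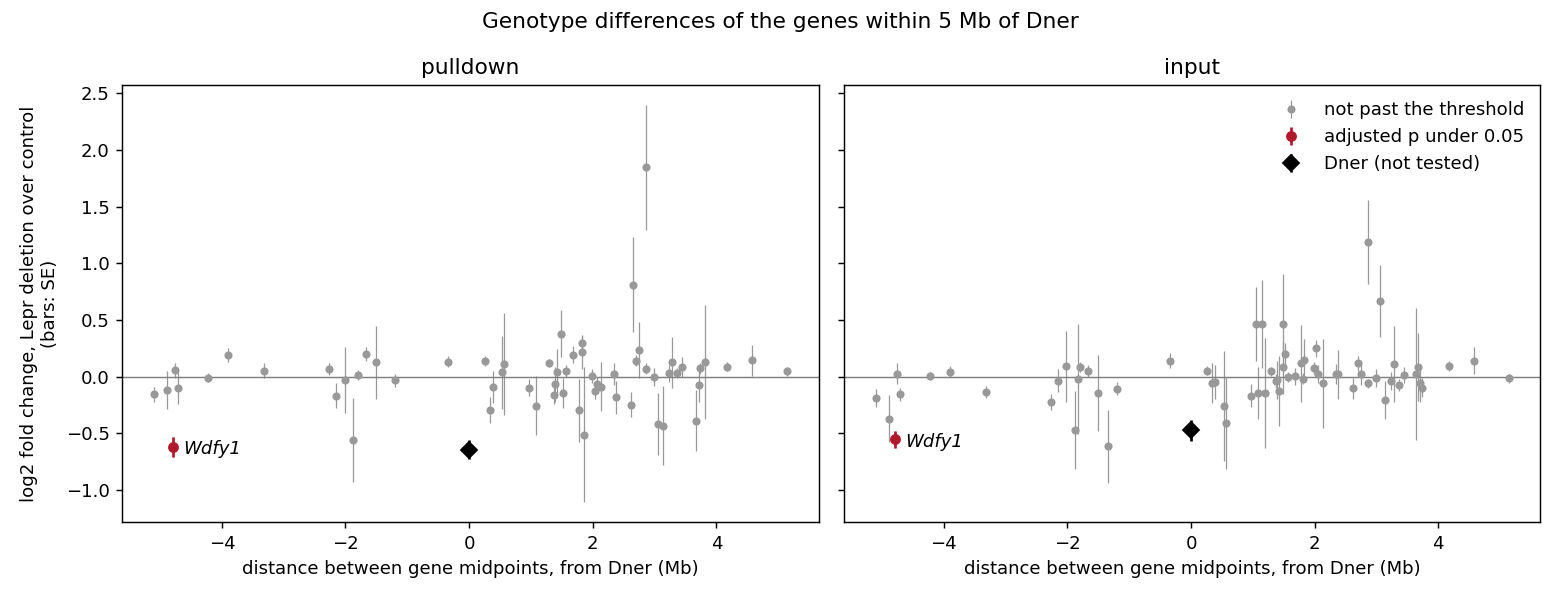
Log2 fold change of Lepr deletion over control with its SE against distance from Dner in megabases, for 62 genes in pulldown (left) and 66 in input (right); red marks an adjusted p under 0.05 and the black diamond is Dner. Wdfy1, at -0.62 and -0.55, is the one called neighbour in each panel, and the other genes lie on both sides of 0.

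The genes whose levels were most like Dner's across the 16 libraries were not Notch genes. By Pearson correlation of log2 levels among 9231 genes, they were Mal2, a membrane-traffic protein, with 0.97, the integral membrane protein Itm2b with 0.96, the Golgi protein Yipf4 with 0.95, the neuregulin Nrg3 with 0.95 and the DNA helicase Fbxo18 with 0.94. These values are a description over libraries that share 2 fractions and 2 genotypes, and they include the genotype difference by which Dner was picked. After the mean of each fraction was removed, the 5 highest were Mal2 with 0.96, Wdfy1 with 0.93, Yipf4 with 0.92, the potassium channel subunit Kcnj9 with 0.92 and the sorting nexin Snx13 with 0.92. Among the pathway members abundant enough to enter, Jag2 had 0.10, Rbpj -0.85 and Hey1 -0.89 before that step. After it, Jag2 had 0.37, Rbpj -0.63 and Hey1 -0.75. Mal2 had 83.2 to 92.9 CPM in Lepr-deletion pulldown and 111 to 120 CPM in control pulldown, and 59.7 to 65.9 CPM in Lepr-deletion input and 68.7 to 78.8 CPM in control input. Its groups did not overlap in either fraction, which held for 10.0% of all genes tested in pulldown and 6.88% in input. Mal2 was named for its likeness to Dner, so this separation follows in part from that choice.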

How the data were processed

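RNA was measured in 16 libraries, pulldown and input of 8 pools of mouse hypothalamus, grouped by the labels. The submitters' processing notes name Salmon 1.10.1, DESeq2 1.38.3 and the build GRCm38, and neither annotation release nor strand setting is given in the sources used here. As deposited, each gene had an estimated count (fractions occur), a second estimated count rescaled from TPM so that length is divided out, and a TPM value. A table deposited by the authors gives, for 4 comparisons, log2 fold changes with an adjusted p-value each, without the design formula.

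Estimated counts were rounded and tested two-sided with edgeR 4.0.16 (R 4.3.3), quasi-likelihood test, TMM scaling, filterByExpr (minimum count 10, minimum total 15) and Benjamini-Hochberg adjustment over all genes tested, called at 0.05. Pairs of groups used their 8 libraries and the difference of enrichment all 16, without a pool term. Scripts were tested on simulated data. Levels are TMM-scaled CPM over 16 libraries. The floor of 3 counts covers counting error only, and 24 within-group pairs of libraries gave chi-square values of 8.16 to 49.9 for each degree of freedom, far above counting noise. Pools are separate sets of animals, so p-values measure the spread between pools. Pulldown and input of a pool came from 1 lysate per the labels' protocols, and deviations from group means correlated by 0.0447 to 0.364 between them, above 0.1 in 6 of 8 pools.

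Alternatives were RLE factors, library totals, no filter, DESeq2 1.42.0, rescaled counts, limma 3.58.1 on log2(TPM + 1) and log2(TPM + 0.1), leaving out libraries, all 16 libraries in each fit, and pool as a block. The members and gene lists were chosen with earlier results of these data known. Named genes were the 10 members, any gene of the wider list called between genotypes, up to 6 in each direction called between fractions in both genotypes with the smallest p, and the 5 most like Dner by each of 2 correlations, with log2 CPM averaging 3 or more. Promoters and gene positions are from RefSeq, GRCm38.p6. Comparisons of genotypes and of fractions share libraries, so their values are given side by side.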

Additional observations from a re-analysis of the deposited data

Results flagged for a closer look

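In 40 sets of 4 libraries (10 genes in 4 groups), 4 had a highest library far from the other 3 for the size of the group's range, and chance gives about 1 in 20 such sets. Dner had 87.7 CPM in control input pool 2, where the other 3 control input pools had 63.0 to 65.5 CPM. Rbpj had 66.5 CPM in control input pool 1, where the others had 60.2 to 61.3 CPM. Hes5 had 9.23 CPM in control input pool 3, where the others had 6.47 to 6.93 CPM. Hey1 had 39.4 CPM in control pulldown pool 1, where the others had 33.0 to 33.8 CPM. All 4 were control libraries.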

How the results depend on the processing

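The 108 genes called between genotypes in pulldown became 266 without the filter, 1050 with DESeq2, 16 with rescaled counts, 30 and 22 with log2(TPM + 1) and log2(TPM + 0.1), 508 with all 16 libraries in 1 fit, 3363 without pools 1 and 5, and 19 to 1262 when each library was left out. With the mean log2 CPM of 4 Y-linked genes as a covariate, an alternative chosen after seeing the data, they became 29. The summed level of these 4 genes was 67.0 to 155 CPM in Lepr-deletion pulldown and 40.0 to 83.5 CPM in control pulldown. The 9 members had 1 call there, and 0 with rescaled counts, with both TPM scales and with the covariate (Notch2 adjusted p 0.0999), 5 without pools 1 and 5, and 0 to 1 when each library was left out. In input, 41 genes became 108 with library totals (87.0% of them higher, against 58.5%), 261 without the filter, 359 with DESeq2, 11 with rescaled counts, 22 and 20 with TPM, 231 with the covariate, 1957 without pools 1 and 5, and 19 to 402 when each library was left out, while the members went to 2 without pools 1 and 5 and stayed at 0 otherwise. In pulldown, library totals gave 76 genes, 39.5% higher, against 61.1%. For the difference of enrichment, 2 genes became 4 with RLE factors, 4 with library totals, 6 without the filter, 28 with DESeq2, 0 with rescaled counts, 6 with log2(TPM + 1), 87 without pools 1 and 5, and 1 to 5 when each library was left out. With pool as a block, the difference gave 4 genes, and pulldown over input gave 11054 genes in Lepr-deletion pools and 12178 in control pools, against 10740 and 11381, with 8 members in each; the block changed no other call. Pulldown over input turned positive for Dll1 with library totals (0.24 in Lepr-deletion pools, 0.10 in control pools), with rescaled counts in Lepr-deletion pools (0.19) and with the 2 TPM scales (0.68 and 1.09 in Lepr-deletion pools, 0.29 and 0.43 in control pools), past the threshold only at 0.68 and 1.09. With library totals and the 2 TPM scales it turned for Jag2 (0.34, 0.62 and 0.76 in Lepr-deletion pools, 0.50, 0.74 and 0.90 in control pools), for Rbpj (0.23, 0.64 and 0.66 in Lepr-deletion pools, 0.32, 0.70 and 0.73 in control pools) and for Hey1 (0.074, 0.51 and 0.52 in Lepr-deletion pools, 0.17, 0.58 and 0.59 in control pools). On log2(TPM + 1) the median of all genes moved to 0.70 in Lepr-deletion pools and 0.75 in control pools. The cause of these shifts was not tested. Of 932 values of single members under an alternative, 847 kept direction and side of the threshold, and 47 turned without a call in either setting. Another 20 turned with a call in the default setting, the alternative or both. Direction was kept by 8 that newly passed and 10 that no longer passed. The 847 include 25 values of the untested Dner difference of enrichment, which kept direction but have no side of the threshold. Notch1, Notch3 and Jag1 levels under 1 CPM in pulldown limit what their genotype comparison can show.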
